A study of Homo sapiens with 10 samples.

Results

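The genes described here are 54 genes of the cornified envelope and the epidermal barrier, out of 22003 features in the count table. They were chosen by gene symbol for their function: 18 envelope precursors and crosslinking enzymes, 9 desmosome and plakin genes, 12 proteases and protease inhibitors, 6 alarmins and calmodulin-like proteins, 4 genes of barrier lipids and 5 transcription factors, with keratins left out. All 54 were in the table. A filter on low counts kept 41 for testing, 13 fell below it, and 3 of those 13 had no count in any library.

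HaCaT cells, an immortalised human keratinocyte line derived from skin, were pretreated for 24 h with LBP, a polysaccharide-glycoprotein of Lycium barbarum (goji), or with vehicle. Cells of the irradiated groups then received 12 Gy, and RNA was harvested 3 h after irradiation and sequenced. The groups were irradiated LBP (LBP, then 12 Gy, n = 3), irradiated vehicle (vehicle, then 12 Gy, n = 3), LBP (LBP with no irradiation, n = 2) and vehicle (vehicle with no irradiation, n = 2). All cells were of the same wild-type line, kept in culture medium with fetal bovine serum. The groups thus stand for 1 immortalised line, and the irradiated groups for 1 dose and 1 time. No matching harvest time is recorded for the non-irradiated groups. The labels number the repeats without stating separate cultures, so every p-value refers to the spread among these libraries alone, and that spread may be technical.

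Keratinocytes that leave the basal layer build a cornified envelope beneath the plasma membrane. Transglutaminases crosslink precursors such as involucrin, the small proline-rich proteins and loricrin onto a scaffold that begins with the plakins envoplakin and periplakin at desmosomes, while filaggrin and its relatives aggregate keratin filaments. Kallikrein proteases, held in check by inhibitors such as LEKTI, later cleave the desmosomes so that dead cells can shed, and lipids attached to the envelope seal the barrier.

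Depth was 31830506 to 62986831 counts per library, and a count of 0 allows up to 0.0478 to 0.0925 CPM (counts scaled to library size with TMM factors; the limit is 3 counts, or 6 if both mates of a pair were counted, and covers counting error only). The labels give the tissue as mucosa. Basal keratinocyte markers were abundant, with KRT5 at a median of 1240 and KRT14 at 1840 FPKM (fragments scaled by gene length and library size), and so were the simple-epithelium keratins, with KRT8 at 1570 FPKM. Of the mucosal markers, KRT13 had a median of 36.5 FPKM, KRT4 had 1.25 FPKM and KRT76 had no count. The markers of cornifying skin KRT1 and loricrin had medians of 0.0722 and 0 FPKM, against 24.2 FPKM for KRT10. Of 22 markers of fibroblasts, leukocytes, endothelium and melanocytes, 3 had a median of at least 1 FPKM, with CD68 at 6.9, MITF at 1.26 and COL1A1 at 1.03 FPKM. Another 4 (DCN, MS4A1, PECAM1 and TYR) had no count in any library, and the other 15 had medians of 0 to 0.698 FPKM.

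The sequences before the RefSeq starts of the called genes FLG, HRNR and SPRR2A, all within the epidermal differentiation complex of chromosome 1, and SERPINB13, near SERPINB4 and SERPINB3 on chromosome 18, are shown because these genes lie among relatives. They are RefSeq sequences on GRCh38.p14, read on the strand of the gene and cut where GENCODE v29 annotates an exon, apart from the last base of the SPRR2A TATA box. FLG is at chr1:152325240-152325489 on the minus strand, HRNR at chr1:152224194-152224443 on the minus strand, SPRR2A at chr1:153057537-153057762 on the minus strand and SERPINB13 at chr18:63587128-63587299 on the plus strand. The SERPINB13 start in RefSeq lies downstream of the one in GENCODE v29, so that stretch is intronic in GENCODE v29. Capitals mark TGANTCA (N is any base), a loose form of the AP-1 binding site that FLG matches as TGAATCA, and TATAAA, the TATA box.
FLG: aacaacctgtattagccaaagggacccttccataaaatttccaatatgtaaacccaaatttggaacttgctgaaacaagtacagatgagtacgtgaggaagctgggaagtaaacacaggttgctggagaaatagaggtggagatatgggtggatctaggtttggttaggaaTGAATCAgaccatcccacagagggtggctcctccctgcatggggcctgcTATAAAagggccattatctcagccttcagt
HRNR: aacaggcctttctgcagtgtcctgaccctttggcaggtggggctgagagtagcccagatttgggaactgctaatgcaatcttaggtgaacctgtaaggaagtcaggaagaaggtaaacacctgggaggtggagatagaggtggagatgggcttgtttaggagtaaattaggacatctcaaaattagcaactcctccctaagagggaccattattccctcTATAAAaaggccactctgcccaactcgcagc
SPRR2A: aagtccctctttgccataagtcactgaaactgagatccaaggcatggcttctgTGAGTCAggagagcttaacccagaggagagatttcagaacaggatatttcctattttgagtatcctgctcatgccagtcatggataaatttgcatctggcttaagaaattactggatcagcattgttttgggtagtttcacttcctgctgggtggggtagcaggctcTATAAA
SERPINB13: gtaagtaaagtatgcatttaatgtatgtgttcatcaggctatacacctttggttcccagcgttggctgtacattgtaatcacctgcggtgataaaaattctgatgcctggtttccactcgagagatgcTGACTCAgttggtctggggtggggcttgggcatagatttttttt

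RefSeq sequence was matched by symbol for 46 of the 54 genes, at the first start listed for each, and 35116 sequences over all genes were searched in the 250 bases before the start. TGANTCA, on both strands, was found in 12 of the 46 (26.1%) and in 6.57% of all sequences. It lay at -79 in FLG, -197 in SPRR2A and -87 in SERPINB13, counted from the RefSeq start, and it was also present in IVL, SPRR1A, SPRR1B, SPRR3, FLG2, RPTN, SBSN, S100A12 and CASP14. TATAAA, on the gene's strand, was found in 13 of the 46 (28.3%) and in 6.8% of all sequences, at -30 in FLG and SPRR2A and -31 in HRNR. GCGTG, the core bound by the aryl hydrocarbon receptor, was found on either strand in 8 of the 46 (17.4%) and in 32.2% of all sequences. TGACNNNGC, the antioxidant response element bound by NRF2, was found on either strand in 2 of the 46 (4.35%, CNFN and KLK7) and in 10.9% of all sequences, and it can share its first letters with TGANTCA. AACCGGTT, the grainyhead-like site, was found in 0 of the 46 and in 0.117% of all sequences. The share over all sequences counts every listed start of a gene, so it is not measured like the share of the 46. At later starts TGACNNNGC also occurred in KLK13, GRHL3, ALOXE3 and CERS3, and TGANTCA in PRDM1 and ALOXE3. GCGTG also occurred at later starts of GRHL3 and ALOXE3, and TATAAA at those of S100A8. These matches describe letters in a window and were not tested for binding.

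Per length, the levels of barrier genes differed widely. Of the 54 genes, 12 had a mean of at least 10 FPKM over the 10 libraries and 24 were under 1 FPKM, against 5400 and 10981 of the 22003 features. The highest were KLK5, a kallikrein that cleaves desmosomal proteins, at 136 FPKM, desmoplakin (DSP), which ties desmosomes to keratin, at 92.1 FPKM, and plakophilin 1 (PKP1), a desmosomal plaque protein, at 74.5 FPKM. Periplakin (PPL) and desmoglein 3 (DSG3), the desmosomal cadherin of basal layers, followed at 51.1 and 50.96 FPKM, and then KLK10 at 45.96 and SERPINB13, an inhibitor of lysosomal cysteine proteases, at 40.9 FPKM. Filaggrin (FLG) had 11.2 FPKM and involucrin (IVL) 4.03 FPKM. By role, the median was 10.4 FPKM for desmosomes and plakins, 2.98 for proteases and inhibitors, 1.89 for transcription factors, 0.575 for alarmins and calmodulin-like proteins, 0.511 for barrier lipids and 0.311 for envelope precursors and crosslinkers. Levels also ranged widely within a role, and the desmosomal genes CDSN, DSC1 and DSG1 had means of only 0.163, 0.0401 and 0.00751 FPKM.

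**Figure D1:**
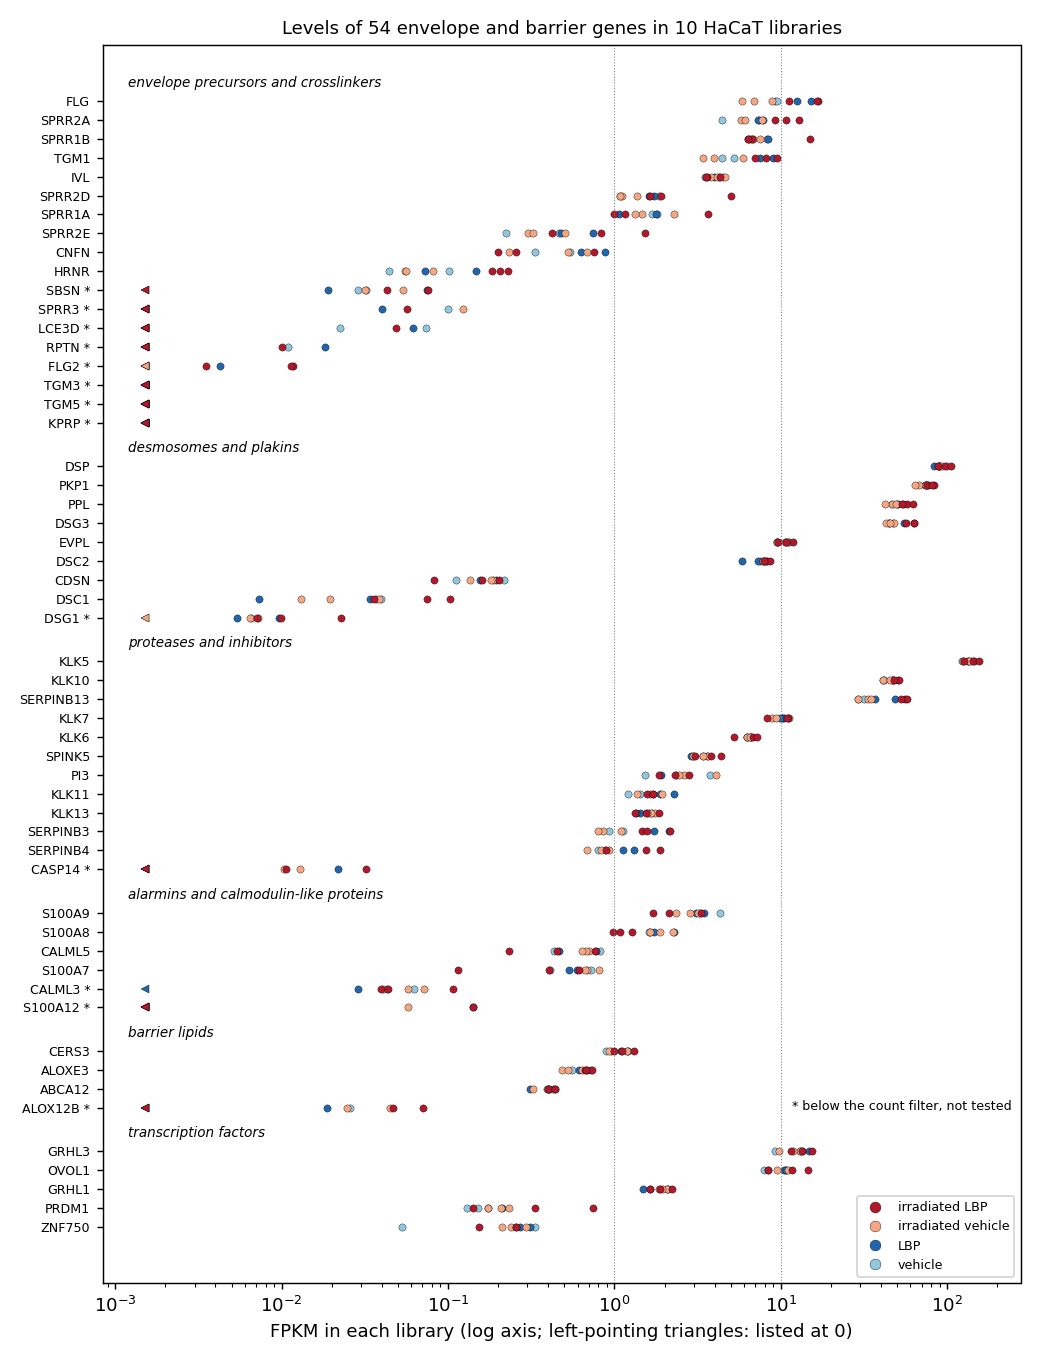
FPKM of each of the 54 genes (rows, grouped by role) on a log axis, 1 point per library, coloured by group in the order irradiated LBP, irradiated vehicle, LBP and vehicle. KLK5 has the highest mean, 136 FPKM, and TGM3, TGM5 and KPRP have no count in any library.

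The 13 genes below the filter were the filaggrin relatives FLG2 and repetin (RPTN), the transglutaminases TGM3 and TGM5, the precursors SPRR3, SBSN, LCE3D and KPRP, the suprabasal desmosomal cadherin DSG1, the filaggrin-processing protease CASP14, the alarmin S100A12, the calmodulin-like CALML3 and the lipoxygenase ALOX12B. TGM3, TGM5 and KPRP had 0 counts in all 10 libraries. DSG1 had 5, 6 and 3 counts in irradiated LBP libraries, 0, 3 and 3 in irradiated vehicle libraries, 4 and 2 in LBP libraries and 0 and 4 in vehicle libraries, too few to compare. FLG2 had 6, 2 and 6 counts in irradiated LBP libraries, 0, 0 and 0 in irradiated vehicle libraries, 0 and 2 in LBP libraries and 0 and 0 in vehicle libraries. No FLG2 value was above 6 counts, the limit if both mates were counted, and no fold is given.

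LBP raised 8 of the 41 tested genes in irradiated cells and lowered none. Filaggrin and hornerin, the transglutaminase TGM1, the small proline-rich protein SPRR2A, desmoglein 3, periplakin and the serpins SERPINB13 and SERPINB3 rose by 0.34 to 1.68 on the log2 scale at an adjusted p under 0.05. Over all 14799 tested features, 2.79% rose and 1.57% fell. The median log2 fold change was 0.19 for the 41 tested genes and 0.00509 for all tested features, and 30 of the 41 values were positive. The 3 irradiated LBP libraries lay wholly above the 3 irradiated vehicle libraries for 13 genes and wholly below for 2, against 13.9% and 13.6% of all features. In bulk RNA, fewer cells of a type and less RNA per cell cannot be told apart.

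LBP in cells that were not irradiated gave no call among the 41 by edgeR's quasi-likelihood test, where 0.804% of all features were called. An unadjusted p under 0.05 was reached by 8 of the 41, against 13.5% of all features. DESeq2 called 3 of the 41, all higher (SERPINB13, SERPINB3 and TGM1), where it called 2.53% of all features. Limma called 0 on log2(FPKM + 0.1) and on log2(FPKM + 1), where it called 0.311% and 0.439% of all features. The median log2 fold change was 0.12, and LBP libraries lay wholly above vehicle libraries for 17 genes and wholly below for 4, against 23.2% and 22.3% of all features. The 8 genes called in irradiated cells had positive values here too, as had 31 of the 41 tested genes. The median of the 8 was 0.60 here, against 0.82 in irradiated cells. They were chosen by their call in irradiated cells, which can raise the 0.82, so the medians are not on equal terms. No library is shared between these comparisons, but both rest on 1 fitted spread.

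**Figure D2:**
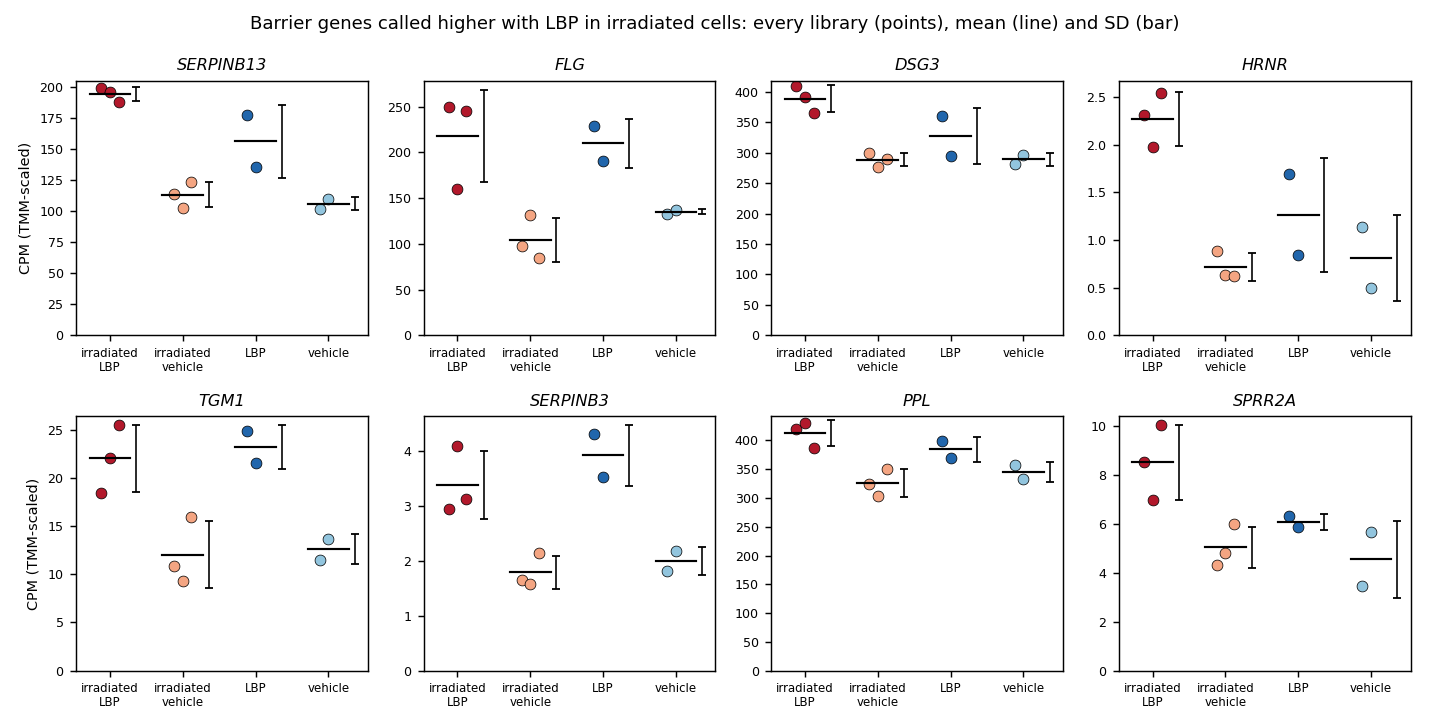
CPM of the 8 genes called for LBP in irradiated cells, 1 panel per gene and 1 point per library, with each group's mean and SD (n = 3 for the irradiated groups, n = 2 for the others). In every panel the 3 irradiated LBP points lie above the 3 irradiated vehicle points.

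Among envelope precursors and crosslinkers, LBP in irradiated cells raised 4 of the 10 tested genes and lowered none. Over all tested features 2.79% rose and 1.57% fell, and the counts by role divide the same 8 calls. The median log2 fold change of the 10 genes was 0.81. Filaggrin (FLG, chr1:152302175-152325203 on GRCh38, minus strand), which aggregates keratin and is broken down into natural moisturising factor, had 249.8, 159.9 and 245 CPM in irradiated LBP cells, against 97.8, 131 and 84.6 CPM in irradiated vehicle cells. The lowest irradiated LBP library was above the highest irradiated vehicle library, and FLG rose by 1.06 ± 0.17 on the log2 scale (SE, adjusted p = 0.0072). Without irradiation FLG had 228 and 191 CPM in LBP cells, against 133 and 137 CPM in vehicle cells. These groups did not overlap either, but the log2 fold change of 0.64 ± 0.21 was not called (adjusted p = 0.217; 0.00653 to 0.745 over the alternatives, called in 1, the fit of only the groups compared). The FLG call in irradiated cells held under all 18 alternative settings, with an adjusted p of 0.000257 to 0.0472.

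Hornerin (HRNR, chr1:152212082-152224193, minus strand), a filaggrin relative with a similar repeat structure, had the largest log2 fold change of the 41 tested genes, at a low level. It had 2.31, 1.97 and 2.54 CPM in irradiated LBP cells, against 0.884, 0.635 and 0.624 CPM in irradiated vehicle cells, from 64 to 112 and from 30 to 36 counts. HRNR rose by 1.68 ± 0.33 on the log2 scale (SE, adjusted p = 0.0191), with no overlap. The non-irradiated groups overlapped, with 1.69 and 0.843 CPM in LBP cells and 1.13 and 0.493 CPM in vehicle cells, and the log2 fold change was 0.68 ± 0.41 (adjusted p = 0.508). Over the 18 alternatives the adjusted p in irradiated cells was 0.000213 to 0.0971, and the call was lost without irradiated vehicle replicate 2 (0.0881) or 3 (0.0736) and with limma on log2(FPKM + 1) (0.0971). In the transcripts compared, FLG and HRNR share no exact 50-base stretch, and the windows before their starts were 57.0% identical. Whether reads were divided between FLG and HRNR was not tested. Both lie opposite the antisense gene FLG-AS1, and since the strand setting of the counting is not known, sense and antisense reads cannot be told apart.

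Transglutaminase 1 (TGM1, chr14:24249114-24264432, minus strand), the membrane-bound enzyme that crosslinks envelope proteins, rose by 0.87 ± 0.18 on the log2 scale with LBP in irradiated cells (SE, adjusted p = 0.0226). It had 18.5, 22.1 and 25.5 CPM in irradiated LBP cells, against 10.9, 9.27 and 15.9 CPM in irradiated vehicle cells, and 24.8 and 21.6 CPM in LBP cells, against 11.5 and 13.7 CPM in vehicle cells. Neither pair of groups overlapped, and the log2 fold change without irradiation was of the same size, 0.88 ± 0.22, but was not called (adjusted p = 0.107). Over the 18 alternatives the adjusted p in irradiated cells was 2.08e-05 to 0.0911. The call was lost without irradiated vehicle replicate 1 (0.0911) or 2 (0.0885) and without irradiated LBP replicate 3 (0.0643), and with limma on log2(FPKM + 0.1) (0.0732). In non-irradiated cells the adjusted p was 0.00193 to 0.647 over the alternatives. There TGM1 was called with no low-count filter (0.0368), with DESeq2 (0.00193), with only the groups compared (0.00285) and with a replicate block. It was also called without irradiated vehicle replicate 3 (0.0327), whose TGM1 level was the highest of its group.

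The small proline-rich proteins, short crosslinkable precursors, were led by SPRR2A (chr1:153056113-153057537, minus strand). SPRR2A had 8.54, 6.97 and 10.02 CPM in irradiated LBP cells, against 4.32, 4.803 and 5.98 CPM in irradiated vehicle cells, without overlap, and rose by 0.76 ± 0.19 on the log2 scale (SE, adjusted p = 0.0486). This was the call nearest the threshold. It was lost in 10 of 18 alternatives, whose adjusted p was 0.00352 to 0.162. The libraries without which it was lost were irradiated LBP replicates 1 (0.0922) and 3 (0.133), irradiated vehicle replicates 1 (0.162), 2 (0.153) and 3 (0.0657), and LBP replicates 1 (0.069) and 2 (0.0688). It was also lost with only the groups compared (0.0507) and with limma on log2(FPKM + 0.1) (0.116) and log2(FPKM + 1) (0.0744). In non-irradiated cells SPRR2A had 6.32 and 5.85 CPM after LBP, against 3.45 and 5.67 CPM in vehicle cells, a log2 fold change of 0.40 ± 0.24 (adjusted p = 0.49).

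The other small proline-rich genes were not called by edgeR's quasi-likelihood test on all libraries. SPRR2D had 1.51, 1.26 and 3.899 CPM in irradiated LBP cells, against 0.835, 0.846 and 1.06 CPM in irradiated vehicle cells, without overlap and with a log2 fold change of 1.28 ± 0.38 (adjusted p = 0.0805). Over the alternatives its adjusted p was 0.0175 to 0.257, and SPRR2D was called with DESeq2 (0.0175), with no low-count filter (0.0447) and without irradiated LBP replicate 2 (0.0347). SPRR2E had 0.336, 0.647 and 1.201 CPM in irradiated LBP cells, against 0.246, 0.254 and 0.404 CPM in irradiated vehicle cells, overlapping in 1 library, with a log2 fold change of 1.25 ± 0.48 (adjusted p = 0.153). SPRR1B had 4.899, 4.38 and 10.7 CPM in irradiated LBP cells, against 4.57, 4.85 and 5.32 CPM in irradiated vehicle cells, and these groups overlapped (log2 fold change 0.44 ± 0.28, adjusted p = 0.384). In all of them irradiated LBP replicate 3 was the highest of the 10 libraries, at 2.58 times the next highest for SPRR2D, 1.86 for SPRR2E, 1.74 for SPRR1B, 1.62 for SPRR1A and 1.17 for SPRR2A. Without that library the log2 fold change of SPRR1B turned to -0.08, and that of SPRR2D was 0.60 (adjusted p = 0.257). Non-irradiated levels of SPRR1B were 6.14 and 4.66 CPM in LBP cells and 4.55 and 5.83 CPM in vehicle cells, a log2 fold change of 0.05 ± 0.34 (adjusted p = 0.966). SPRR1A, at under 1.2 CPM in every library, had log2 fold changes of 0.21 ± 0.46 with LBP in irradiated cells and -0.24 ± 0.58 in non-irradiated cells.

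The coding sequences of SPRR2A, SPRR2D and SPRR2E are 97.7% to 98.6% identical, and those of SPRR1A and SPRR1B 96.3%, and how reads were shared out among these near-copies is uncertain. Counts of SPRR2A, SPRR2D and SPRR2E were also summed, a step chosen after the data were seen. With LBP in irradiated cells the log2 fold change of this sum was 0.87 ± 0.22 (SE, adjusted p = 0.0447, main settings alone). The sum had 10.39, 8.876 and 15.12 CPM in irradiated LBP cells, against 5.405, 5.904 and 7.448 CPM in irradiated vehicle cells. Irradiated LBP replicate 3 was again the highest library. The sum of SPRR1A and SPRR1B gave 0.42 ± 0.29 (adjusted p = 0.423).

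**Figure D3:**
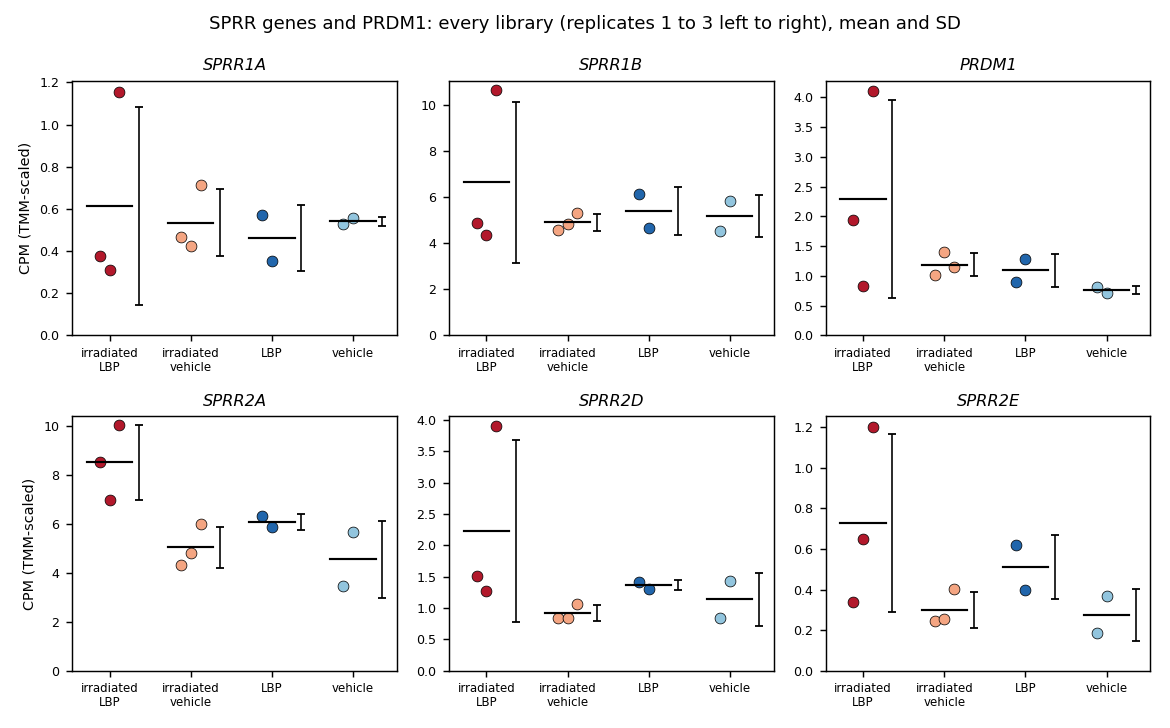
CPM of SPRR1A, SPRR1B, SPRR2A, SPRR2D, SPRR2E and PRDM1 by library, 1 point per library (replicates 1 to 3 from left to right within a group), with each group's mean as a line and its SD as a bar. Irradiated LBP replicate 3 is the highest library in all 6 panels, at 1.17 to 2.58 times the next highest.

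Involucrin (IVL), the early soluble precursor, was not called, and its groups overlapped in both LBP comparisons. It had 9.12, 10.3 and 8.84 CPM in irradiated LBP cells, against 9.16, 10.2 and 11.4 CPM in irradiated vehicle cells, and 10.8 and 10.2 CPM in LBP cells, against 8.61 and 11.03 CPM in vehicle cells. The log2 fold changes were -0.13 ± 0.12 (95% interval -0.39 to 0.13, adjusted p = 0.577) and 0.09 ± 0.15 (-0.23 to 0.41, adjusted p = 0.834). Cornifelin (CNFN), another envelope component, had log2 fold changes of -0.27 ± 0.55 with LBP in irradiated cells and 0.79 ± 0.63 in non-irradiated cells, at 5 to 23 counts per library.

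Among desmosomes and plakins, LBP in irradiated cells raised 2 of the 8 tested genes and lowered none, against 2.79% and 1.57% of all features. The median log2 fold change of the 8 genes was 0.19. Desmoglein 3 (DSG3, chr18:31447795-31478702, plus strand) had 410.2, 391 and 366 CPM in irradiated LBP cells, against 299, 277 and 289 CPM in irradiated vehicle cells. The groups did not overlap, and DSG3 rose by 0.43 ± 0.08 on the log2 scale (SE, adjusted p = 0.0132). Its non-irradiated levels were 361 and 295 CPM in LBP cells and 281 and 297 CPM in vehicle cells, overlapping, with a log2 fold change of 0.18 ± 0.10 (adjusted p = 0.435). Over the alternatives the adjusted p in irradiated cells was 2.51e-05 to 0.0806, and the call was lost without irradiated vehicle replicate 2 (0.0749) and with limma on log2(FPKM + 0.1) (0.0806).

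Periplakin (PPL, chr16:4882507-4960741, minus strand), a plakin of the first envelope scaffold, had 421, 429.8 and 387 CPM in irradiated LBP cells, against 325, 303 and 351 CPM in irradiated vehicle cells. It rose by 0.34 ± 0.07 on the log2 scale (SE, adjusted p = 0.0254), a small change with no overlap. In non-irradiated cells PPL had 399.7 and 369 CPM after LBP, against 358 and 333 CPM in vehicle cells, and the log2 fold change of 0.16 ± 0.09 was not called (adjusted p = 0.471). Over the 18 alternatives the adjusted p in irradiated cells was 0.000691 to 0.123. The call was lost without irradiated LBP replicate 1 (0.0693) or 2 (0.0547) and without irradiated vehicle replicate 1 (0.0944) or 2 (0.118), and with limma on log2(FPKM + 0.1) (0.123) and log2(FPKM + 1) (0.0689).

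Desmoplakin (DSP) had 948, 1046 and 916 CPM in irradiated LBP cells, against 888, 857 and 893 CPM in irradiated vehicle cells, and 949.9 and 839 CPM in LBP cells, against 1027 and 919 CPM in vehicle cells. Its log2 fold changes with LBP were 0.14 ± 0.08 (adjusted p = 0.295) in irradiated cells, where the groups did not overlap, and -0.12 ± 0.09 (adjusted p = 0.598) in non-irradiated cells, where they did, and neither was called. PKP1 had log2 fold changes of 0.23 ± 0.07 (adjusted p = 0.0675) in irradiated cells, without overlap, and 0.07 ± 0.08 (adjusted p = 0.738) in non-irradiated cells. DESeq2 called PKP1 higher in irradiated cells (0.016), as did edgeR with a replicate block (0.0441), in a range of 0.016 to 0.221 over the alternatives. Envoplakin (EVPL), which pairs with periplakin, had 0.08 ± 0.07 in irradiated and -0.17 ± 0.09 in non-irradiated cells. The desmosomal cadherins DSC2 and DSC1 had 0.06 ± 0.08 and 1.43 ± 0.55 in irradiated cells and -0.18 ± 0.10 and -0.85 ± 0.74 in non-irradiated cells, DSC1 at 2 to 17 counts per library. Corneodesmosin (CDSN), which is secreted into late desmosomes, had -0.14 ± 0.38 and 0.12 ± 0.45. CDSN, with 228 counts in all, overlaps PSORS1C1 on the other strand, with 583, and the strand setting is not known.

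Among proteases and inhibitors, LBP in irradiated cells raised 2 of the 11 tested genes, both of them serpins, and lowered none. Over all features 2.79% rose and 1.57% fell. The median log2 fold change of the 11 genes was 0.10. SERPINB13 (chr18:63586989-63604639, plus strand) had 199, 196 and 188 CPM in irradiated LBP cells, against 114, 103 and 123 CPM in irradiated vehicle cells. It rose by 0.78 ± 0.10 on the log2 scale (SE, adjusted p = 0.00105), with wide separation between the groups, and had the lowest adjusted p of the 41 genes. Without irradiation SERPINB13 had 177 and 136 CPM in LBP cells, against 102 and 109.6 CPM in vehicle cells. The log2 fold change was 0.56 ± 0.12 with an adjusted p of 0.0501, just outside the threshold, and over the alternatives it was 0.000395 to 0.461. SERPINB13 was called there with no low-count filter (0.0153), with a mean CPM of at least 1 (0.0458) and with DESeq2 (0.000395). It was called with only the groups compared (0.031) and with a replicate block. It was also called without LBP replicate 2 (0.0145), a fit with 1 LBP library that is assumed to vary like the other groups. In irradiated cells the call held under all 18 alternatives, with an adjusted p of 5.9e-13 to 0.0231.

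SERPINB3 (squamous cell carcinoma antigen 1, chr18:63655197-63661963, minus strand), an inhibitor of cysteine proteases, had 2.94, 4.099 and 3.13 CPM in irradiated LBP cells, against 1.65, 1.59 and 2.15 CPM in irradiated vehicle cells. The groups did not overlap, and SERPINB3 rose by 0.91 ± 0.19 on the log2 scale (SE, adjusted p = 0.0254). In non-irradiated cells it had 4.33 and 3.54 CPM after LBP, against 1.82 and 2.18 CPM in vehicle cells, also without overlap, with a log2 fold change of 0.97 ± 0.23 that was not called (adjusted p = 0.0951), except by DESeq2 (0.027) and with only the groups compared (0.0373), in a range of 0.027 to 0.57. Over the alternatives the adjusted p in irradiated cells was 0.00277 to 0.107, and the call was lost without irradiated LBP replicate 2 (0.0541) and without irradiated vehicle replicate 1 (0.0968) or 2 (0.107). It was also lost with only the groups compared (0.0513) and with limma on log2(FPKM + 0.1) (0.0565). SERPINB4, its neighbour and an inhibitor of chymotrypsin-like proteases, had 1.79, 3.58 and 3.06 CPM in irradiated LBP cells, against 1.79, 1.35 and 1.63 CPM in irradiated vehicle cells. These overlapped in 1 library, irradiated LBP replicate 1, and the log2 fold change of 0.81 ± 0.24 was not called by edgeR's quasi-likelihood test (adjusted p = 0.0811). DESeq2 called it (0.0376), as did edgeR without that library (0.0216), and the adjusted p was 0.0216 to 0.229 over the alternatives. Non-irradiated levels of SERPINB4 were 2.66 and 2.27 CPM in LBP cells and 1.55 and 1.72 CPM in vehicle cells, with a log2 fold change of 0.59 ± 0.30 (adjusted p = 0.418).

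SERPINB3 and SERPINB4 are recent duplicates whose coding sequences are 95.2% identical, and 23.9% of the 50-base windows of SERPINB3 transcripts also occur in SERPINB4, so reads may be divided between them uncertainly. Their upstream windows are nearly the same as well, with 3 of 250 bases different, at -125, -50 and -23. The stretch outside annotated exons is shown to make this visible, SERPINB3 at chr18:63661964-63662143 and SERPINB4 at chr18:63644327-63644506, both on the minus strand of GRCh38.p14, with the letter that differs in capitals.
SERPINB3: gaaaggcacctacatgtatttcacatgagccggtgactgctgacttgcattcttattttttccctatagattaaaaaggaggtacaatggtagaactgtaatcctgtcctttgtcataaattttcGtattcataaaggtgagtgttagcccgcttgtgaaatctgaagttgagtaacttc
SERPINB4: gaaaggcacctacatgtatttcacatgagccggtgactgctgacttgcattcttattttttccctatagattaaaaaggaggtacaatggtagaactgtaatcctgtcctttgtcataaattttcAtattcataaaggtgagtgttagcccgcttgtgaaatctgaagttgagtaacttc
With the counts of both genes summed, a step chosen after the data were seen, the log2 fold change with LBP was 0.87 ± 0.18 (SE, adjusted p = 0.0234) in irradiated cells and 0.81 ± 0.22 (adjusted p = 0.135) in non-irradiated cells.

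None of the kallikreins, the largest family among the proteases, was called in either LBP comparison. KLK5 had 248, 207 and 264 CPM in irradiated LBP cells, against 229, 213 and 228 CPM in irradiated vehicle cells, and 235 and 257 CPM in LBP cells, against 225 and 207 CPM in vehicle cells. Its log2 fold changes were 0.10 ± 0.09 (95% interval -0.08 to 0.29, adjusted p = 0.528) and 0.18 ± 0.10 (-0.04 to 0.41, adjusted p = 0.471). KLK10 had 175, 169.6 and 164 CPM in irradiated LBP cells, against 156, 138 and 152 CPM in irradiated vehicle cells, and 159.8 and 167 CPM in LBP cells, against 138 and 141 CPM in vehicle cells. Neither pair of KLK10 groups overlapped, with log2 fold changes of 0.19 ± 0.06 (adjusted p = 0.0983) and 0.23 ± 0.08 (adjusted p = 0.214). KLK7, the chymotrypsin-like partner of KLK5 in shedding, had 0.08 ± 0.11 and 0.05 ± 0.13, while the related proteases KLK6 had 0.06 ± 0.12 and 0.01 ± 0.14 and KLK13 had -0.04 ± 0.15 and -0.20 ± 0.18 in irradiated and non-irradiated cells. KLK11 had 0.09 ± 0.16 in irradiated cells and 0.64 ± 0.20 in non-irradiated cells (95% interval 0.21 to 1.08, adjusted p = 0.189), where the LBP libraries lay above the vehicle libraries and the value was close to that of FLG. SPINK5, which encodes the kallikrein inhibitor LEKTI, had 0.17 ± 0.13 and 0.08 ± 0.16.

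Elafin (PI3), an elastase inhibitor that is crosslinked into the envelope, had 1.22, 1.42 and 1.79 CPM in irradiated LBP cells, against 1.62, 1.57 and 2.59 CPM in irradiated vehicle cells, and 1.24 and 1.55 CPM in LBP cells, against 0.974 and 2.36 CPM in vehicle cells. Its groups overlapped, and the log2 fold changes were -0.39 ± 0.32 (adjusted p = 0.514) and -0.28 ± 0.39 (adjusted p = 0.803). Without vehicle replicate 2, its highest non-irradiated library, the second value turned to 0.52.

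None of the 4 tested alarmins and calmodulin-like genes was called, and all 4 had negative log2 fold changes with LBP in irradiated cells, with a median of -0.52. S100A8, a subunit of the antimicrobial protein calprotectin, had 0.631, 0.709 and 0.476 CPM in irradiated LBP cells, against 0.86, 0.783 and 1.05 CPM in irradiated vehicle cells, and 1.12 and 0.843 CPM in LBP cells, against 0.947 and 0.923 CPM in vehicle cells. The irradiated LBP libraries lay below all irradiated vehicle libraries, with a log2 fold change of -0.58 ± 0.26 (adjusted p = 0.223), and the non-irradiated groups overlapped at 0.07 ± 0.31 (adjusted p = 0.948). Of the alternatives, limma on log2(FPKM + 1) called S100A8 lower, with an adjusted p of 0.0436 in a range of 0.0436 to 0.454. S100A9, the other subunit, had 1.45, 2.13 and 1.16 CPM in irradiated LBP cells, against 2.04, 1.57 and 1.87 CPM in irradiated vehicle cells, and 2.09 and 2.36 CPM in LBP cells, against 2.16 and 2.801 CPM in vehicle cells. Both S100A9 differences lay within overlapping groups, at -0.22 ± 0.24 (adjusted p = 0.627) and -0.16 ± 0.28 (adjusted p = 0.85). S100A7 (psoriasin), at 3 to 19 counts per library, had -0.83 ± 0.49 in irradiated and 0.11 ± 0.58 in non-irradiated cells, and CALML5, a calmodulin-like protein of differentiating keratinocytes, had -0.47 ± 0.40 and 0.02 ± 0.48.

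The 3 tested genes of barrier lipids were not called. ABCA12, the transporter that loads lipids into lamellar granules, had 4.79, 4.13 and 4.72 CPM in irradiated LBP cells, against 4.201, 4.27 and 3.43 CPM in irradiated vehicle cells, and 3.46 and 4.47 CPM in LBP cells, against 4.16 and 4.54 CPM in vehicle cells. Its groups overlapped, and the log2 fold changes were 0.20 ± 0.15 (95% interval -0.12 to 0.52, adjusted p = 0.468) and -0.13 ± 0.18 (-0.53 to 0.26, adjusted p = 0.797). CERS3, the synthase of very long chain ceramides, had 5.05, 5.36 and 4.28 CPM in irradiated LBP cells, against 3.98, 3.98 and 5.03 CPM in irradiated vehicle cells, and 4.85 and 5.48 CPM in LBP cells, against 5.11 and 3.76 CPM in vehicle cells. Its groups overlapped, with 0.17 ± 0.16 (adjusted p = 0.568) and 0.23 ± 0.20 (adjusted p = 0.65). ALOXE3, the lipoxygenase that acts after ALOX12B, had 0.35 ± 0.17 (adjusted p = 0.269) and 0.08 ± 0.21 (adjusted p = 0.908).

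The 5 transcription factors, all tested, gave no call. GRHL3, a grainyhead-like activator of barrier genes, had 48.1, 38.2 and 34.5 CPM in irradiated LBP cells, against 36.9, 29.3 and 35.1 CPM in irradiated vehicle cells, and 45.9 and 41.6 CPM in LBP cells, against 26.6 and 37.98 CPM in vehicle cells. Its log2 fold changes were 0.25 ± 0.15 (adjusted p = 0.334) in irradiated cells, where the groups overlapped, and 0.43 ± 0.18 (adjusted p = 0.321) in non-irradiated cells, where they did not. PRDM1 (BLIMP1), a repressor needed for terminal differentiation in mouse epidermis, had 1.93, 0.832 and 4.103 CPM in irradiated LBP cells, against 1.01, 1.397 and 1.16 CPM in irradiated vehicle cells, and 0.895 and 1.29 CPM in LBP cells, against 0.816 and 0.716 CPM in vehicle cells. Irradiated LBP replicate 3 stood at 2.12 times the next highest library, and replicate 2 of the same group was among the low ones. The log2 fold change of PRDM1 was 0.96 ± 0.42 (adjusted p = 0.213) in irradiated and 0.52 ± 0.55 (adjusted p = 0.724) in non-irradiated cells. Without irradiated LBP replicate 2 the first was called (0.0344), in a range of 0.0344 to 0.731 over the alternatives. PRDM1 overlaps ATG5 on the other strand, and ATG5 had 19063 counts in all against 637 for PRDM1. Without a known strand setting, reads from the overlap cannot be assigned to either gene.

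ZNF750, an activator of late differentiation, had 0.946, 0.925 and 0.567 CPM in irradiated LBP cells, against 0.86, 0.783 and 1.06 CPM in irradiated vehicle cells, and 0.995 and 1.19 CPM in LBP cells, against 0.211 and 1.19 CPM in vehicle cells. The vehicle libraries stood apart, with 8 counts in replicate 1 and 75 in replicate 2, and the log2 fold changes were -0.16 ± 0.45 (adjusted p = 0.874) and 0.57 ± 0.54 (adjusted p = 0.681). Without vehicle replicate 2 the second was 2.37, and without vehicle replicate 1 it was -0.14, neither of them called. ZNF750 lies inside TBCD on the other strand, and TBCD had 48070 counts in all against 404 for ZNF750, so reads of both cannot be told apart without a known strand setting. GRHL1, a relative of GRHL3, had -0.03 ± 0.11 and -0.36 ± 0.14, and OVOL1, a zinc-finger repressor, had 0.29 ± 0.18 and 0.24 ± 0.22 in irradiated and non-irradiated cells.

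**Figure D4:**
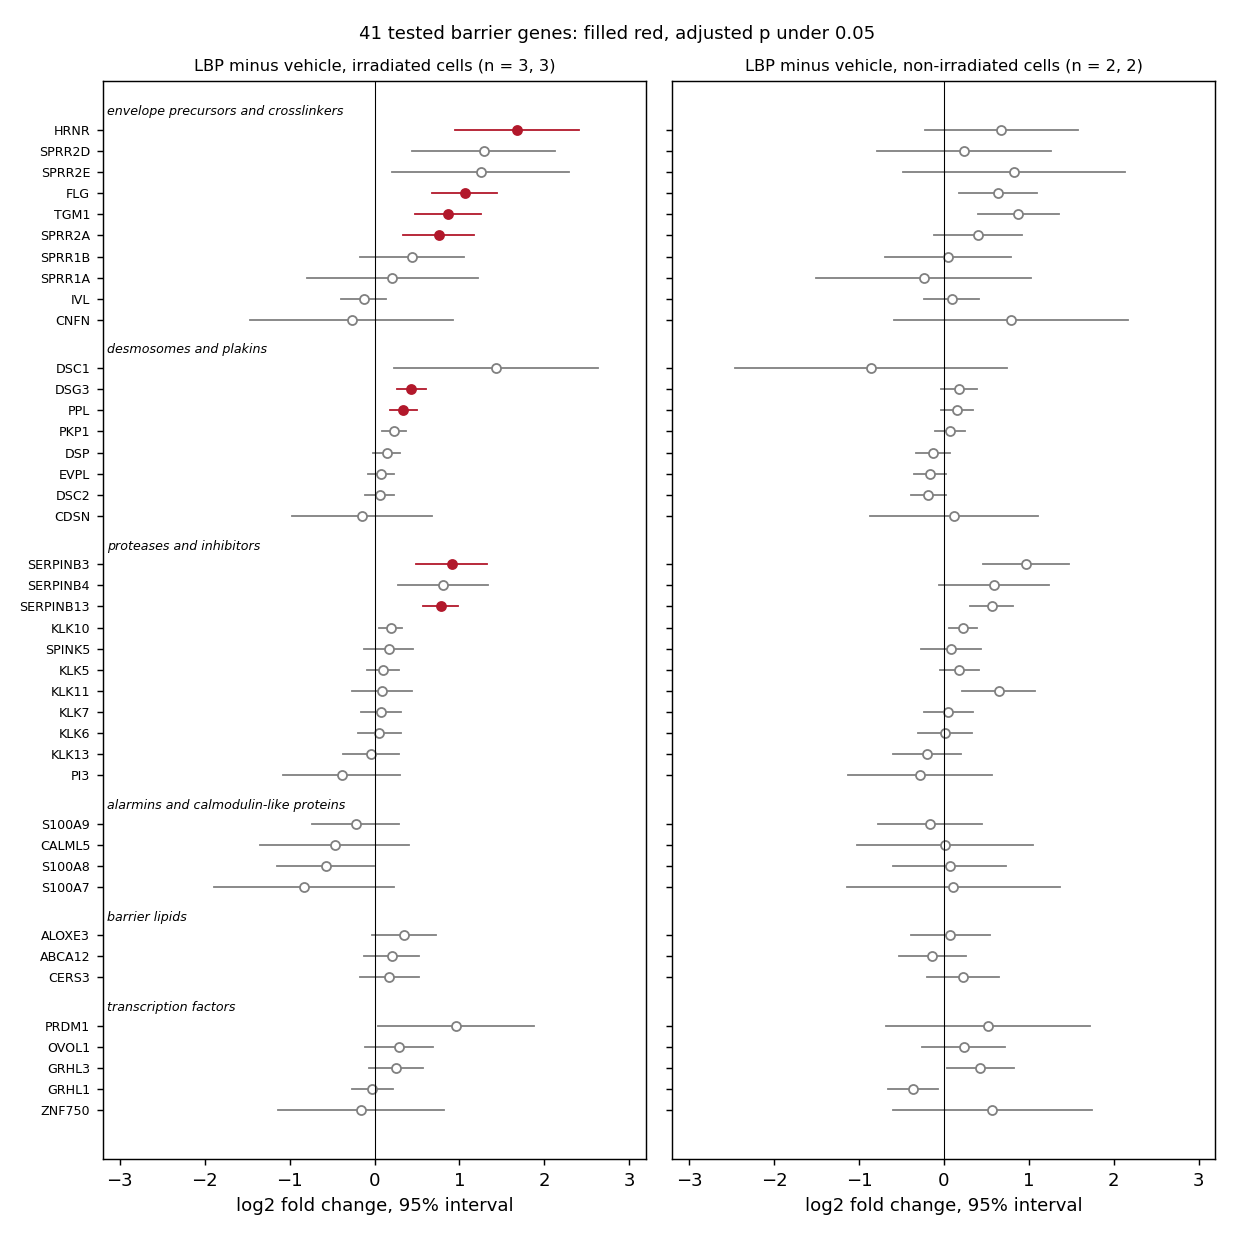
Log2 fold change with LBP, LBP over vehicle, of the 41 tested genes in irradiated cells and in non-irradiated cells, with 95% intervals, grouped by role. SERPINB13 at 0.78 ± 0.10 and 0.56 ± 0.12 lies right of 0 with its whole interval in both comparisons. The points of the 4 alarmins and calmodulin-like genes lie left of 0 in irradiated cells, but the intervals of S100A7, S100A9 and CALML5 cross 0.

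Leaving out a library changed the number of calls, among the 41 genes and over all features alike. Without irradiated vehicle replicate 2 only FLG and SERPINB13 of the 41 were called for LBP in irradiated cells, and without irradiated vehicle replicate 1 the 4 called were FLG, SERPINB13, DSG3 and HRNR. Over all features 645 (4.36%) were called with all libraries, 176 (1.19%) without irradiated vehicle replicate 2 and 195 (1.32%) without replicate 1. Leaving out any other library left 6 to 8 calls. Irradiated vehicle replicate 2 held the lowest value of the 10 libraries for 7 of the 41 genes, among them SERPINB3, PPL, TGM1 and DSG3, against 9.01% of all features. Irradiated LBP replicate 3 held the highest for 11 of the 41, against 16.2% of all features, and vehicle replicate 1 held the lowest for 11, against 12.1%. Of 22 tested markers, TP63 rose and KRT18 (-0.36 ± 0.08, adjusted p = 0.035) and MITF (-0.46 ± 0.11, adjusted p = 0.041) fell with LBP in irradiated cells, and KRT10 rose in non-irradiated cells (0.50 ± 0.08, adjusted p = 0.013). The 4 simple-epithelium keratins summed to 3390 to 3890 FPKM in irradiated LBP libraries, 3940 to 4500 in irradiated vehicle libraries, 3750 to 4350 in LBP libraries and 4370 to 4550 in vehicle libraries. The 6 basal markers summed to 3190 to 3660 FPKM in irradiated LBP libraries, 2970 to 3510 in irradiated vehicle libraries, 3610 to 3830 in LBP libraries and 3240 to 3400 in vehicle libraries. The part of these markers in the results was not tested.

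Radiation by itself gave no call among the barrier genes 3 h after 12 Gy. With LBP pretreatment, 0 of the 41 tested genes were called between irradiated LBP and LBP cells by edgeR's quasi-likelihood test, where 0.142% of all features were called. An unadjusted p under 0.05 was reached by 8 of the 41, against 13.5% of all features, and DESeq2 and limma called 0. Without LBP, 0 of the 41 were called between irradiated vehicle and vehicle cells, where 0.439% of all features were called, 0 reached an unadjusted p under 0.05, against 6.91% of all features, and DESeq2 and limma called 0. The median log2 fold change of the 41 was 0.08 after LBP, with values from -0.91 in CNFN to 1.65 in DSC1, and -0.02 without LBP, with values from -0.63 in DSC1 to 0.64 in PRDM1. By role, the median after LBP was highest in envelope precursors and crosslinkers, at 0.37, and lowest in alarmins and calmodulin-like proteins, at -0.55.

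None of the single values for radiation was called. The 95% intervals, which carry no adjustment for multiple tests, lay off 0 after LBP for 8 of the 41 genes and without LBP for none. After LBP they lay above 0 for HRNR, SPRR2A, DSG3, DSC1, DSC2, SERPINB13 and PRDM1 and below it for S100A8. These 8 are the genes with an unadjusted p under 0.05 by edgeR's quasi-likelihood test. Of all features, 13.5% reached that after LBP and 6.91% without LBP. FLG had a log2 fold change of 0.06 ± 0.19 with 12 Gy after LBP (95% interval -0.36 to 0.48) and -0.37 ± 0.19 without LBP (-0.79 to 0.05). SERPINB13 had 0.31 ± 0.11 after LBP (95% interval 0.08 to 0.54, adjusted p = 0.28) and 0.10 ± 0.11 without it (adjusted p = 0.913). HRNR had 0.85 ± 0.37 (0.05 to 1.65, adjusted p = 0.344) and -0.15 ± 0.39 (adjusted p = 0.976), and TGM1 had -0.08 ± 0.20 and -0.07 ± 0.20. S100A8 had -0.70 ± 0.29 after LBP (-1.33 to -0.07, adjusted p = 0.328) and -0.06 ± 0.28 without it. The comparison after LBP uses the same irradiated LBP libraries as the LBP comparison in irradiated cells, so the values of a gene in both are not independent.

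**Figure D5:**
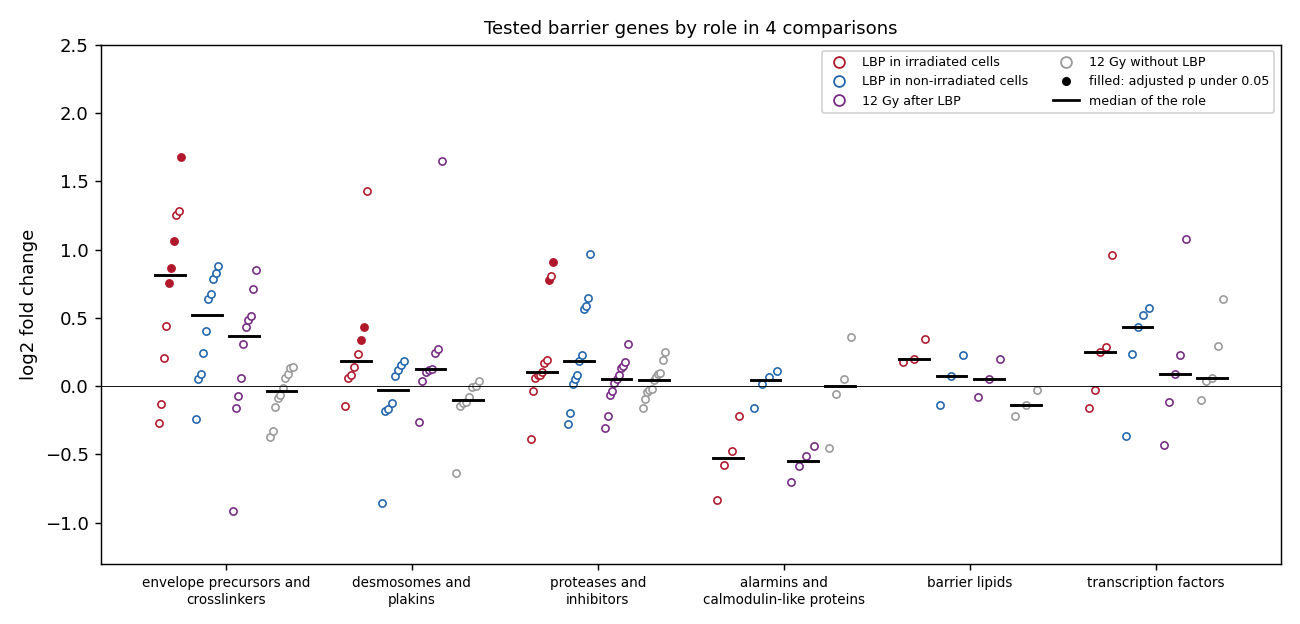
Log2 fold changes of the tested genes by role in the comparisons LBP in irradiated cells, LBP in non-irradiated cells, 12 Gy after LBP and 12 Gy without LBP, 1 point per gene with the median of each role. The median of envelope precursors and crosslinkers is 0.81 with LBP in irradiated cells and -0.04 with 12 Gy without LBP.

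The difference between the LBP effects, irradiated minus non-irradiated, was not called for any of the 41 tested genes by edgeR's quasi-likelihood test, where 0.0135% of all features were called, nor by DESeq2 or limma. An unadjusted p under 0.05 was reached by 3 genes, DSC1, DSP and EVPL, against 8.2% of all features. For TGM1 the difference was -0.01 ± 0.28 on the log2 scale (95% interval -0.62 to 0.61), for SERPINB3 -0.06 ± 0.30 (-0.72 to 0.60), for SERPINB13 0.22 ± 0.15 (-0.11 to 0.54) and for FLG 0.43 ± 0.27 (-0.17 to 1.02). For HRNR it was 1.00 ± 0.53 (-0.16 to 2.16) and for DSG3 0.25 ± 0.12 (-0.02 to 0.52). The calls in irradiated cells were thus not shown to differ in size from the LBP effect without irradiation, and intervals this wide leave room for differences of more than 1 log2 unit in FLG and HRNR.

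A wider list of 104 other genes of epidermal differentiation and barrier function, chosen by name, had 102 members in the table and 68 tested. With LBP in irradiated cells 2 of the 68 rose (2.94%) and 1 fell (1.47%), near the 2.79% and 1.57% of all features, so these counts are not a result about the list. In non-irradiated cells 0 rose and 1 fell (1.47%), where 0.804% of all features were called. The median log2 fold changes were 0.07 and 0.08. The called genes are given for their own values. LYPD3, a surface protein of suprabasal keratinocytes, had 59.2, 59.8 and 68.2 CPM in irradiated LBP cells, against 47.2, 47.9 and 49.7 CPM in irradiated vehicle cells, and rose by 0.37 ± 0.07 on the log2 scale (SE, adjusted p = 0.0163). TP63, the transcription factor that maintains stratified epithelium, had 285, 253 and 270.4 CPM in irradiated LBP cells, against 197, 203 and 208 CPM in irradiated vehicle cells, and rose by 0.41 ± 0.08 (SE, adjusted p = 0.0226). Neither gene's irradiated groups overlapped. Over the alternatives the adjusted p was 0.000241 to 0.0798 for LYPD3, whose call was lost without irradiated vehicle replicate 1 (0.0798) or 2 (0.0749) and with limma on log2(FPKM + 0.1) (0.0693). For TP63 it was 0.000244 to 0.0922, and the call was lost without irradiated LBP replicate 1 (0.066) and without irradiated vehicle replicates 1 (0.0922), 2 (0.0903) and 3 (0.061), and with limma on log2(FPKM + 0.1) (0.0874).

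TGM2, the tissue transglutaminase that is expressed in many cell types, went the other way from the envelope enzyme TGM1. It had 2.19, 2.22 and 2.47 CPM in irradiated LBP cells, against 4.52, 3.56 and 3.72 CPM in irradiated vehicle cells, and 2.26 and 2.25 CPM in LBP cells, against 4.16 and 4.15 CPM in vehicle cells. Neither pair of groups overlapped, and TGM2 fell by 0.78 ± 0.15 on the log2 scale in irradiated cells (SE, adjusted p = 0.0158) and by 0.88 ± 0.18 in non-irradiated cells (SE, adjusted p = 0.0474). The adjusted p over the alternatives was 0.00256 to 0.0773 in irradiated cells, where the call was lost without irradiated vehicle replicate 1 (0.0773). In non-irradiated cells it was 0.0138 to 0.261. That call was lost without irradiated LBP replicate 2 (0.054), irradiated vehicle replicates 1 (0.0628), 2 (0.0689) or 3 (0.0698), LBP replicates 1 (0.213) or 2 (0.231), or vehicle replicates 1 (0.261) or 2 (0.171), and with limma on log2(FPKM + 1) (0.0901). The TGM2 call in non-irradiated cells was also lost with a replicate block. None of the 68 genes was called in either 12 Gy comparison by edgeR's quasi-likelihood test.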

How the data were processed

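RNA was measured in 10 libraries, grouped by their labels. The submitters' processing notes name HISAT2 and GRCh38. The counting tool, its gene annotation and its strand setting were not given in the sources used here. As deposited by the authors, the tables hold whole-number counts per gene and FPKM per gene, which are scaled by gene length and library size. Low counts were mostly even (59.7% of those from 1 to 10), so both mates of a pair may have been counted.

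All features of the count table went into edgeR 4.0.16 under R 4.3.3 (filterByExpr with a minimum count of 10, 14799 kept, TMM factors, quasi-likelihood fit with 1 mean per group over all 10 libraries, 6 residual degrees of freedom). The Benjamini-Hochberg adjustment ran over all tested features, with calls under 0.05. CPM use TMM factors. The script was tested on simulated data. The 18 alternatives were RLE size factors, other filters, DESeq2 1.42.0, only the groups compared, a replicate block, limma 3.58.1 on log2(FPKM + 0.1) and log2(FPKM + 1), and each library left out. Leaving out a non-irradiated library leaves 1 in its group, which is assumed to vary like the other groups. DESeq2, limma and the other tools took the whole table.

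Full values are given for genes called in any comparison and for a set of 21 genes; other members are given by role, and of the wider list the called genes are named. The members, lists and rules were chosen with earlier results of these data known. Libraries of 1 group differed beyond sampling noise (chi-square per degree of freedom 10.6 to 36.9). Positions are from GENCODE v29 and upstream sequences from RefSeq.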

Additional observations from a re-analysis of the deposited data

How the results depend on the processing

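Of the 41 tested genes, 8 were called for LBP in irradiated cells. The count was 3 with limma on log2(FPKM + 0.1) and 6 with limma on log2(FPKM + 1), of which 1 was lower. It was 8 with RLE size factors and 11 with DESeq2. Other settings changed how many genes were tested. The count was 6 of 40 with only the groups compared, 8 of 32 with a mean CPM of at least 1 and 9 of 51 with no filter. Of all features, 2.87%, 5.72% and 3.73% were called in these settings. Leaving out 1 library gave 2 to 8. For LBP in non-irradiated cells the count was 0. It was 2 of 51 with no filter, 1 of 32 with a mean CPM of at least 1 and 3 with DESeq2. It was 4 of 40 with only the groups compared (FLG, SERPINB13, SERPINB3 and TGM1) and 0 to 1 with 1 irradiated library left out. The cause of these differences was not tested. Both 12 Gy comparisons and the difference between LBP effects gave 0 calls under every alternative run. The limma tests on FPKM understate changes of low genes. Deviations of 13 same-numbered pairs correlated at -0.161 to 0.11, with 2 pairs over 0.1. In a group of 2 libraries the deviations mirror each other, so these pairs are not independent. Whether the replicate numbers pair the libraries could not be decided from them. With a replicate block the counts were 9 for LBP in irradiated cells (PKP1 was added) and 2 for LBP in non-irradiated cells (SERPINB13 and TGM1). TGM2 lost its call in non-irradiated cells with that block (adjusted p = 0.0658). Over all features the block gave 813 calls for LBP in irradiated cells and 148 for LBP in non-irradiated cells, more than the main fit. Over all features the count for LBP in irradiated cells was 645, against 1228 with DESeq2, 182 and 350 with limma, 409 with only the groups compared and 176 to 722 with 1 library left out; for LBP in non-irradiated cells it was 119, against 374, 46 and 65, 278 and 38 to 175 in the same order, and 188 with no filter. For 12 Gy after LBP it was 21 (6 to 184 over the alternatives), for 12 Gy without LBP 65 (18 to 129) and for the difference between LBP effects 2 (0 to 16). Of 113 values of named genes that were not called, 41 changed sign under some alternative, none of them called with the other sign. Genes under about 20 counts per library are limited by depth.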
